A study of Mus musculus with 11 samples.

Results

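The 10 genes described here code for proteins of squamous differentiation and of the cornified envelope: the small proline-rich proteins Sprr1a, Sprr1b, Sprr2d, Sprr2h and Sprr2k, the involucrin gene Ivl, the secreted proteins Sbsn, Dmkn and Krtdap, and the crosslinking enzyme Tgm1. They were taken from the 36528 gene IDs of the series by name, as Entrez IDs matched to mouse symbols, after their levels across the 3 mutant groups had been seen. Their differences between groups are therefore given as a description, without a test. All 10 IDs were found, and 8 of the 10 were among the 18224 genes that passed a low-count filter. Sprr2d and Krtdap did not pass it.

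The cornified envelope is a crosslinked protein shell that replaces the plasma membrane of the outermost cells of squamous epithelia. Involucrin, envoplakin and periplakin form its first scaffold, transglutaminases join the proteins through glutamine and lysine side chains, and small proline-rich proteins act as flexible cross-bridges. Loricrin and the late cornified envelope proteins are laid down afterwards. Most of these genes lie together in the epidermal differentiation complex. In the liver they are not part of the hepatocyte programme, and some SPRR genes are known from stress responses of simple epithelia, including bile ducts.

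The libraries were made from polyA RNA of mouse cell lines grown out of liver tumours that carried 1 of 3 mutant coactivators. The YAP groups were YAP-S127A and YAP-5SA (also spelled YAP-S5A in the labels) with 3 libraries each, and TAZ-S89A had 5 libraries. In each mutant, serines through which the Hippo pathway restrains the protein are replaced by alanine. No source used here gives the promoter that drove the mutants, the age and strain of the animals, or the number of tumours or lines behind each group, and no group without a mutant was analysed here. The mutant therefore cannot be told apart from the identity of the line, and a p-value reflects nothing but how far these libraries scatter, and that scatter may be technical.

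Total counts ran from 20071144 to 49159713 per library. The 5 TAZ-S89A libraries were not equally distinct: by a chi-square of counts per degree of freedom, replicates 1 and 2 differed by 5.63 and replicates 4 and 5 by 2.01, while the other pairs of that group differed by 101.3 to 217.9. Replicates 4 and 5 carry sample IDs of a second number series, and the other 9 libraries belong to the first. Of 8 hepatocyte markers, the YAP-S127A libraries had no count of 3, those of YAP-5SA of 4 and those of TAZ-S89A of 2, and their summed level never passed 10.07 CPM (counts scaled to library size, with a correction for library composition). The 8 biliary markers, none at 0, summed to 478.3 to 602 CPM in YAP-S127A, 2721 to 4273 CPM in YAP-5SA and 1758 to 3663 CPM in TAZ-S89A, but single markers differed in their order: Spp1 averaged 325.8, 202.5 and 2736 CPM in YAP-S127A, YAP-5SA and TAZ-S89A, and Krt19 55.9, 1371 and 7.38 CPM. The 8 keratinocyte markers summed to 41.74 to 56.69 CPM in YAP-S127A, with Krt1 and Dsg3 at 0, to 345.5 to 632 CPM in YAP-5SA, with none at 0, and to 70.82 to 141.6 CPM in TAZ-S89A, with Krt5 and Krt1 at 0. Most of these sums was Perp, at 31, 442.6 and 68.3 CPM, and Krt10 averaged 16.8, 12.8 and 28.8 CPM. Mesenchymal markers summed to 6452 to 7001, 287.1 to 385.5 and 1827 to 3452 CPM, and macrophage markers to 23.76 to 28.66, 87.4 to 100.6 and 27.48 to 37.03 CPM. Of these, Adgre1 was at 0 in YAP-S127A, and Thy1, Adgre1 and C1qa in TAZ-S89A. Most of the mesenchymal sum in TAZ-S89A was Col1a2, at 1500 to 3056 CPM against 14.7 to 17.8 CPM in YAP-5SA. Col1a1 went the other way, at 27.5 to 36.5 CPM in TAZ-S89A against 256.4 to 359 CPM in YAP-5SA. Of 7 mesenchymal markers tested, 4 were called higher and 3 lower in TAZ-S89A than in YAP-5SA, where 26.9% and 31% of all tested genes were. The part of these shifts in the results below was not tested. In such bulk libraries, fewer cells of a type and less RNA per cell cannot be told apart.

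The envelope genes did not form 1 pattern. Sprr1a, Sprr2h, Ivl, Sbsn and Dmkn were highest in YAP-5SA, by 7.29- to 592.6-fold over TAZ-S89A. Sprr1b was the reverse, being found almost only in TAZ-S89A. Sprr2k and Tgm1 were low in every library, Krtdap was near 0 outside YAP-5SA, and Sprr2d had a single count in the whole series. On the scale per length (nRPKM, deposited by the authors), the order in YAP-5SA was Sprr1a (1245), Sprr2h (77.8), Sbsn (36.5), Dmkn (6.92), Ivl (4.31), Sprr2k (0.67), Krtdap (0.278), Tgm1 (0.147) and Sprr1b (0.0859). The YAP-5SA libraries of Tgm1 and Sprr1b, neighbours in this order, overlapped, with SDs of 0.0246 and 0.0877 nRPKM.

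**Figure D1:**
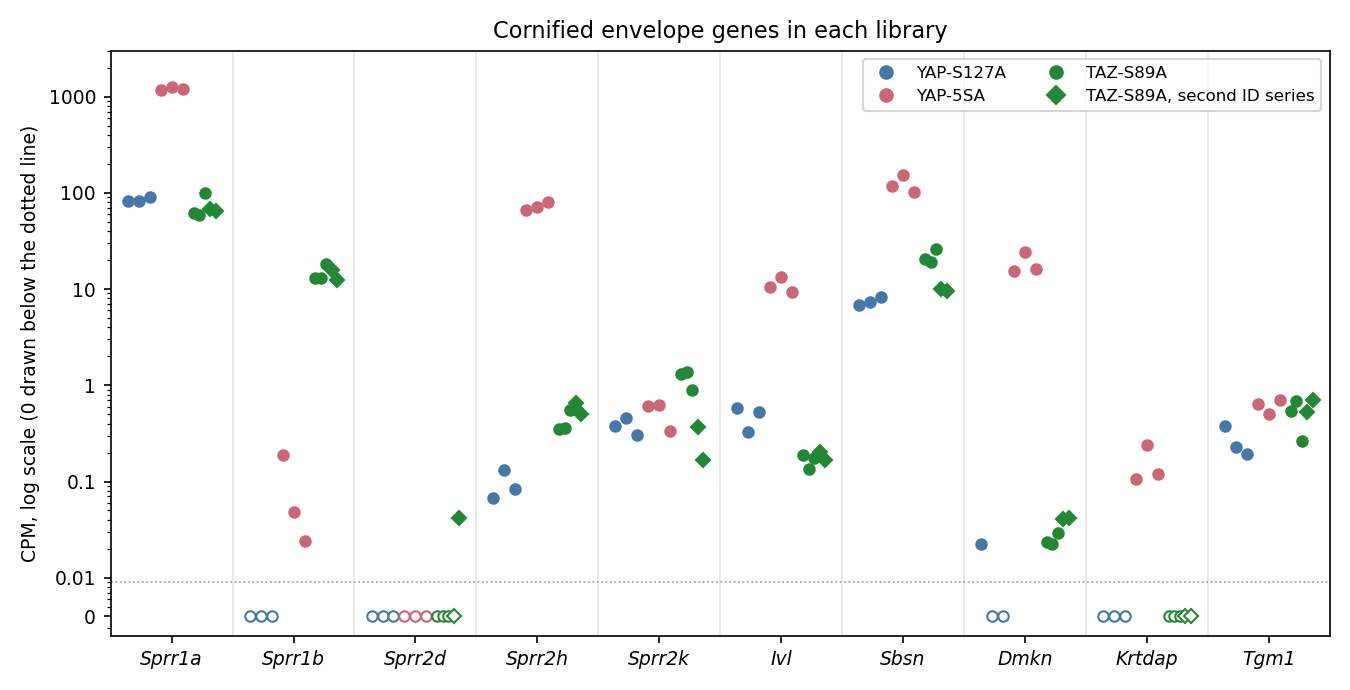
CPM of each gene (x axis) in each library on a log axis (y axis); each point is a library, coloured by mutant, diamonds are the TAZ-S89A libraries of the second ID series, and open points below the dotted line are libraries with no count. Sprr1a, Sprr2h, Ivl, Sbsn and Dmkn peak in YAP-5SA, and Sprr1b in TAZ-S89A.

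Sprr1a (Entrez gene 20753, GRCm38 chromosome 3, 92483954 to 92485881) codes for a small proline-rich cross-bridging protein. It stood at 82.1, 81.9 and 90.8 CPM in YAP-S127A, at 1171, 1261 and 1187 CPM in YAP-5SA, and at 61.2, 58.7, 100, 68.7 and 65.3 CPM in TAZ-S89A. All 3 YAP-5SA libraries lay above every other library, while the TAZ-S89A and YAP-S127A ranges overlapped. The mean was 14.2-fold higher in YAP-5SA than in YAP-S127A (log2 fold change 3.83, SE 0.25) and 17-fold higher than in TAZ-S89A (TAZ-S89A minus YAP-5SA -4.09, SE 0.20). TAZ-S89A and YAP-S127A differed by -0.26 (SE 0.20). By mean nRPKM it ranked 45 among all gene IDs in YAP-5SA, 812 in YAP-S127A and 845 in TAZ-S89A.

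Sprr1b (20754, chromosome 3, 92436808 to 92438817), the closest relative of Sprr1a, had 0 counts in all 3 YAP-S127A libraries, which allows a level of up to 0.0269 CPM over the group (3 counts, counting error only). YAP-5SA libraries held 7, 2 and 1 counts, that is 0.187, 0.0478 and 0.0242 CPM. The 5 TAZ-S89A libraries held 13.2, 13.1, 18.4, 15.8 and 12.5 CPM. No library outside TAZ-S89A came near that range. TAZ-S89A was at least 538.4-fold higher than YAP-S127A against the floor of 3 counts over the group, and 169.1-fold higher than YAP-5SA (log2 fold change 7.40, SE 0.39). Without YAP-5SA replicate 1, which held 7 of the 10 counts, that log2 fold change was 8.53. YAP-5SA was at least 3.08-fold higher than YAP-S127A, on 10 counts against 0.

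The coding sequences of the pair were identical at 362 of 459 alignment columns (78.9%), with 432 and 459 coding bases. Both are built of a short repeated unit. Bases outside the coding sequences were not aligned. The 72 bases in which the pair comes closest without a gap in this alignment are shown, since alike stretches make reads hard to place. Of these, 65 are equal, and the capitals mark the bases that differ (GENCODE M21 on GRCm38, minus strand, chr3:92484490-92484561 and chr3:92437338-92437409).
Sprr1a: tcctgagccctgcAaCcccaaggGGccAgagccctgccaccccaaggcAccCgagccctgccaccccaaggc
Sprr1b: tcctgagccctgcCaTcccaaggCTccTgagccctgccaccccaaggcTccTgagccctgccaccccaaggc
No stretch of 50 bases of either transcript occurred in another annotated transcript. In YAP-5SA, where Sprr1a had 145640 counts, Sprr1b had 10, and in YAP-S127A 9451 counts of Sprr1a stood beside 0 of Sprr1b. Counts of Sprr1b were thus not in proportion to those of Sprr1a. On the scale per length, Sprr1a made up 97.4 to 97.7% of the sum over 16 Sprr genes in YAP-S127A, 90.2 to 91% in YAP-5SA and 75.1 to 80.8% in TAZ-S89A. Sprr1b took 14.4 to 17.1% in TAZ-S89A and at most 0.014% in YAP-5SA.

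Sprr2h (20762, chromosome 3, 92385685 to 92387324), a cross-bridging protein of the Sprr2 subfamily, had 3, 4 and 3 counts in the YAP-S127A libraries, a level of 0.0669, 0.131 and 0.0833 CPM. It stood at 66.6, 71.5 and 80.4 CPM in YAP-5SA and at 0.354, 0.357, 0.551, 0.652 and 0.501 CPM in TAZ-S89A. The 3 groups did not overlap. The mean in YAP-5SA was 776.3-fold that in YAP-S127A (log2 fold change 9.60, SE 0.27) and 150.8-fold that in TAZ-S89A (TAZ-S89A minus YAP-5SA -7.28, SE 0.18). TAZ-S89A exceeded YAP-S127A by 2.33 (SE 0.34), from 78 against 10 counts.

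Sprr2k (20765, chromosome 3, 92432582 to 92433927) belongs to the same subfamily but did not share this pattern. Its levels were 0.379, 0.459 and 0.305 CPM in YAP-S127A, 0.615, 0.621 and 0.339 CPM in YAP-5SA, and 1.32, 1.36, 0.899, 0.367 and 0.167 CPM in TAZ-S89A. The 3 groups overlapped, and the log2 fold changes between them were 1.19 (SE 0.52) for TAZ-S89A minus YAP-S127A, 0.72 (SE 0.49) for TAZ-S89A minus YAP-5SA and 0.46 (SE 0.59) for YAP-5SA minus YAP-S127A. Without TAZ-S89A replicates 4 and 5, the first of these was 1.64 (SE 0.32) and the second 1.21 (SE 0.30). Sprr2d (20758, chromosome 3, 92339140 to 92340873) had no count in 10 of 11 libraries and 1 count in TAZ-S89A replicate 5.

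The Sprr2 genes differ in how far a read can be assigned to them. The coding sequence of Sprr2h was 81.5% identical to that of Sprr2b, its closest relative, and that of Sprr2k 76% identical to Sprr2i. Sprr2d was 85.1% identical to Sprr2i, and 4.27% of its 50-base stretches occurred in Sprr2e or Sprr2i, against 0% for Sprr1a, Sprr1b, Sprr2h and Sprr2k. Sprr2a1 and Sprr2a2 had identical coding sequences and shared 96.3 and 96.5% of their 50-base stretches with other transcripts. Both had 0 counts in every library, and since only uniquely aligned reads were counted, their level is uncertain. The length of the reads is not stated in the sources used here.

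**Figure D2:**
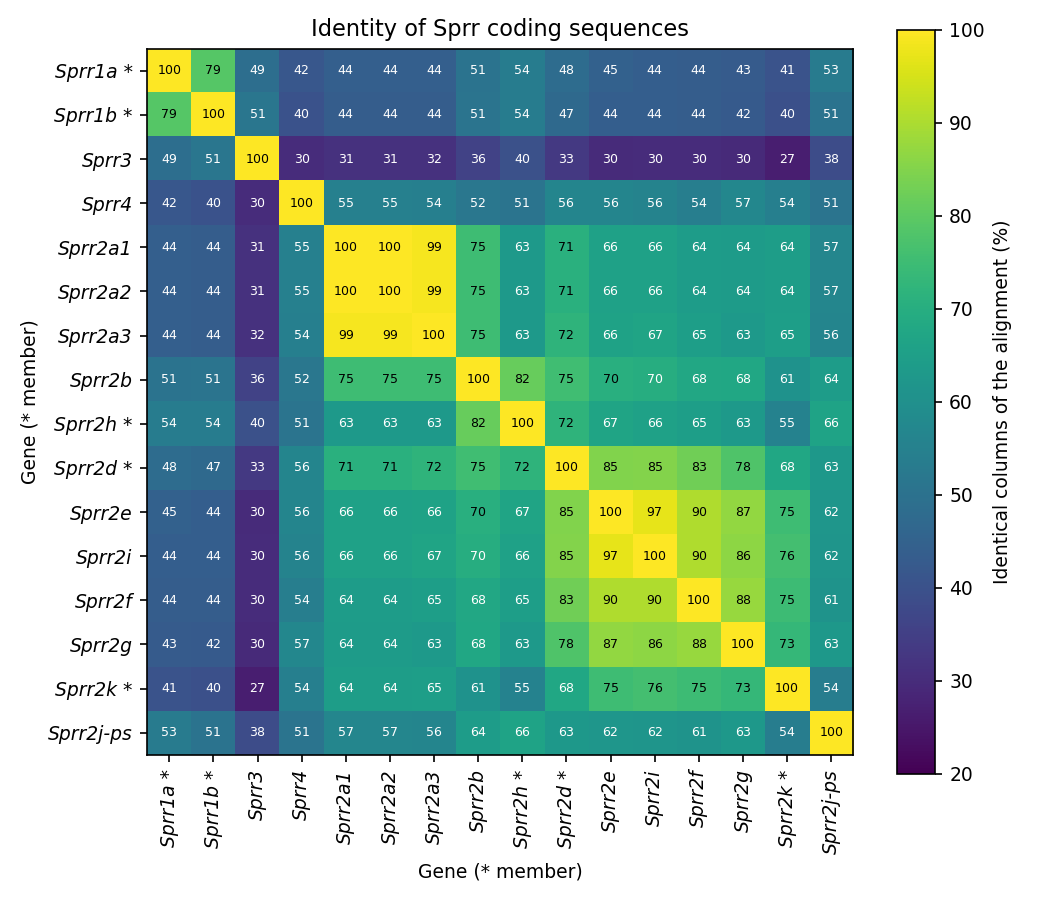
Percent of identical columns in pairwise alignments of the coding sequences of 16 Sprr genes (both axes, members starred), from GENCODE M21 transcripts; yellow is high. Sprr1a and Sprr1b pair at 78.9%, Sprr2a1, Sprr2a2 and Sprr2a3 at 98.8 to 100%, and Sprr2h stands nearest to Sprr2b at 81.5%.

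The repeat of Sprr2h is shown because it is perfect over 3 units at the level of DNA. Its coding sequence matched itself best at a shift of 27 bases (67%, against a median of 27.9% over shifts), and 3 consecutive units of 27 bases were equal at 27 of 27 positions (plus strand, chr3:92386758-92386838; capitals mark bases equal in all units).
Sprr2h: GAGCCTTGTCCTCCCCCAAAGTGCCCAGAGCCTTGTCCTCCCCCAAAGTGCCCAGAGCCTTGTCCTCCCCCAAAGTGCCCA
In Ivl the repeat is longer and looser, with 27 of 45 positions equal over 3 units (minus strand, chr3:92571960-92572094; capitals as before).
Ivl: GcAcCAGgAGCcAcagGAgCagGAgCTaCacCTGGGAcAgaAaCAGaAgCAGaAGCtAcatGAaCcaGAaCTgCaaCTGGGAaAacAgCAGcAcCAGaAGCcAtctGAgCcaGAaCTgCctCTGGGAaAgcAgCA
Such repeats were unique to their gene at 100 bases for all 5 SPRR members and for Ivl, that is 0% of 100-base stretches occurred in another transcript.

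Ivl (16447, chromosome 3, 92570899 to 92573790) codes for involucrin, a glutamine-rich scaffold protein. It stood at 0.579, 0.328 and 0.528 CPM in YAP-S127A, at 10.4, 13.4 and 9.37 CPM in YAP-5SA and at 0.189, 0.134, 0.174, 0.204 and 0.167 CPM in TAZ-S89A. The groups did not overlap, and TAZ-S89A was the lowest of them. YAP-5SA was 23.1-fold above YAP-S127A (log2 fold change 4.50, SE 0.24) and 63.8-fold above TAZ-S89A (TAZ-S89A minus YAP-5SA -5.99, SE 0.23). TAZ-S89A minus YAP-S127A was -1.49 (SE 0.29), from 29 against 55 counts.

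Sbsn, Dmkn and Krtdap lie side by side on chromosome 7 and code for suprabasin, dermokine and keratinocyte differentiation-associated protein, which stratified epithelia secrete. Sbsn (282619, 30732674 to 30756134) stood at 6.82, 7.28 and 8.28 CPM in YAP-S127A, at 119.1, 151.8 and 101.2 CPM in YAP-5SA and at 20.6, 18.9, 26.1, 9.99 and 9.56 CPM in TAZ-S89A. The 3 groups did not overlap. YAP-5SA was 16.6-fold above YAP-S127A (log2 fold change 4.06, SE 0.35) and 7.29-fold above TAZ-S89A (TAZ-S89A minus YAP-5SA -2.86, SE 0.28), and TAZ-S89A was 2.28-fold above YAP-S127A (1.20, SE 0.30). Sbsn overlaps Gapdhs, and without a stated strand setting their reads cannot be told apart. Gapdhs was at 7.05, 4.68 and 4.21 CPM in YAP-S127A, YAP-5SA and TAZ-S89A, called lower in both of the latter than in YAP-S127A, and had 2091 counts in all against 18910 for Sbsn.

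Dmkn (73712, 30763756 to 30781066) had 1, 0 and 0 counts in YAP-S127A and 1 count in each TAZ-S89A library. In YAP-5SA it stood at 15.6, 24.1 and 16.3 CPM. The ratio of YAP-5SA to YAP-S127A, on 2264 counts against 1, was 2091 (95% interval 374.9 to 82630, counting error only). YAP-5SA was 592.6-fold above TAZ-S89A, where 5 counts were found. Krtdap (64661, 30787905 to 30791089) had 4, 10 and 5 counts in YAP-5SA and 0 in all 8 other libraries, so YAP-5SA was at least 5.85-fold above YAP-S127A and at least 8.94-fold above TAZ-S89A.

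Tgm1 (21816, chromosome 14, 55700009 to 55713921), the membrane-bound transglutaminase of keratinocytes, was low throughout. It stood at 0.379, 0.23 and 0.194 CPM in YAP-S127A, at 0.641, 0.502 and 0.702 CPM in YAP-5SA and at 0.543, 0.691, 0.261, 0.53 and 0.71 CPM in TAZ-S89A. The TAZ-S89A range overlapped both others. Log2 fold changes were 1.16 (SE 0.40) for YAP-5SA minus YAP-S127A, 0.99 (SE 0.37) for TAZ-S89A minus YAP-S127A and -0.17 (SE 0.33) for TAZ-S89A minus YAP-5SA. 

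Of the 8 members tested, 7 were called higher in YAP-5SA than in YAP-S127A and none lower, where 55.2% of all tested genes were called, 28.2% higher and 27% lower. In TAZ-S89A minus YAP-5SA, 1 was called higher and 5 lower (57.9% of all genes called, 26.9% higher and 31% lower), and in TAZ-S89A minus YAP-S127A 4 were called higher and 1 lower (57.6% called, 27% and 30.6%). The members were chosen on these contrasts, so nothing is read from these counts. Dmkn passed the filter through YAP-5SA alone and Sprr1b through TAZ-S89A alone. Tgm1 lost its call in 9 alternative settings in TAZ-S89A minus YAP-S127A and in 4 in YAP-5SA minus YAP-S127A; among these, leaving out YAP-S127A replicate 3 gave 0.80 and 0.97. YAP-5SA replicate 2 held the highest YAP-5SA value for 5 of the 8 members (Sprr1a, Sprr2k, Ivl, Dmkn and Sbsn) and for 39.3% of all genes.

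The genes whose centred log2 CPM profile over the 11 libraries came nearest to a member were found by the smallest root mean square difference, a description over libraries that share groups. For Sprr1a they were Rdh10 (0.14), at 48.8, 650.4 and 40.6 CPM in YAP-S127A, YAP-5SA and TAZ-S89A, and Pmaip1 (0.154). For Sprr1b they were Runx3 (0.485), at 0.0109, 0.184 and 16.3 CPM, and Scn3a (0.635). The nearest to Sprr2h were Pde6a (0.781) and Blnk (0.814), and to Ivl Klri1 (0.257) and H2-Ab1 (0.277), both low genes. The nearest to Dmkn were the keratin genes Krt6a (0.289) and Krt4 (0.39), which had 0 and 1 count outside YAP-5SA. The nearest to Sbsn were Perp (0.231), a desmosome protein gene, at 31, 442.6 and 68.3 CPM, and Il5ra (0.316).

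The promoters of the members are shown because several members were high in the same group. RefSeq windows of 250 bases before each start were searched on both strands for the letters TGANTCA (bound by AP-1 factors), GGAATG (TEAD factors), ACCGGT (the core of grainyhead-like sites) and TATAAA. The AP-1 letters were in 9 of 10 members, in every one but Tgm1, against 6.87% of 27025 promoters of the same length. TATAAA was in Sprr1a, Sprr1b, Sprr2d, Sprr2h, Sprr2k, Ivl and Krtdap (13% of all promoters), GGAATG in Sprr1b and Sprr2k (12.6%), and ACCGGT in none (1.83%). Sprr2 promoters are related by descent and are not independent. The 200 bases before the start follow for 7 members, with matches to these letters in capitals: chr3:92485882-92486081, chr3:92438780-92438979 and chr3:92573736-92573935 on the minus strand, and chr3:92385485-92385684, chr3:92432382-92432581, chr7:30751271-30751470 and chr7:30763556-30763755 on the plus strand of GRCm38.
Sprr1a: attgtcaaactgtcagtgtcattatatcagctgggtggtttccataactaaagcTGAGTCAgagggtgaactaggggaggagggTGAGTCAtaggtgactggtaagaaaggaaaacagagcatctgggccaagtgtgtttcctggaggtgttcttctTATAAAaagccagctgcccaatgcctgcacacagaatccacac
Sprr1b: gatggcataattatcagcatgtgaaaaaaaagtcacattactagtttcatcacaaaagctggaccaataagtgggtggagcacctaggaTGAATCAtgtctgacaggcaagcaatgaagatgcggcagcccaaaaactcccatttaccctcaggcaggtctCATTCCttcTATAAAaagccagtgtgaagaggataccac
Ivl: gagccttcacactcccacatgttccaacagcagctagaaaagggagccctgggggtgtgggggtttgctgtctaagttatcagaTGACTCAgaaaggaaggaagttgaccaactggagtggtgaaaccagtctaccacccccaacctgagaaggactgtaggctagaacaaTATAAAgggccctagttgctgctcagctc
Sprr2h: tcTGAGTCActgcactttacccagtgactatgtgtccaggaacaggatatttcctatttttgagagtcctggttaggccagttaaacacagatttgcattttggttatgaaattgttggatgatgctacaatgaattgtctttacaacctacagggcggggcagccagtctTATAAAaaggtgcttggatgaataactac
Sprr2k: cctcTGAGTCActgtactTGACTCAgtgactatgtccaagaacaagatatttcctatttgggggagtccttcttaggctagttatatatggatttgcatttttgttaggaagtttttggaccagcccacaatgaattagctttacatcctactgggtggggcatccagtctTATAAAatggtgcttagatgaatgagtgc
Sbsn: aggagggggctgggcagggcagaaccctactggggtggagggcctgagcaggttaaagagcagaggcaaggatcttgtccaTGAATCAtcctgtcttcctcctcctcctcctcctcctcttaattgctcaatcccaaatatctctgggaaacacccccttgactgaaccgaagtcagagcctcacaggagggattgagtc
Dmkn: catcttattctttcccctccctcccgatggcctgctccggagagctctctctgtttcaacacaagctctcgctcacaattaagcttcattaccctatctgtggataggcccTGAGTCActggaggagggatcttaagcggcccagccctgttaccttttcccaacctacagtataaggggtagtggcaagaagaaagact
Sprr1b, which was found almost only in TAZ-S89A, had AP-1, TEAD and TATA letters, the TEAD letters being on the opposite strand. The TEAD letters of Sprr2k lie just upstream of the stretch shown. Sprr2h and Sprr2k, whose levels differed so widely in YAP-5SA, both had AP-1 letters near the upstream end of the stretch and TATAAA 29 bases before the start. The AP-1 letters were in Sprr1a, Sprr2h, Ivl, Sbsn and Dmkn, which peaked in YAP-5SA, and in every other member but Tgm1. With Tgm1 alone lacking them, they could not separate these members from the rest, and their part in the levels was not tested. Among other lists, the AP-1 letters were in 4 of 9 promoters of the other small proline-rich proteins and 5 of 30 of late envelope proteins. They were in 0 of 14 of crosslinking and lipid enzymes and 0 of 8 of AP-1 factors. In the other 4 lists, the letters were in 1 of 7 promoters of keratins, 2 of 15 of proteases and inhibitors (13.3%) and 1 of 18 of regulators (5.56%). They were in 1 of 3 scaffold and desmosome promoters, too few to compare. Promoters of some listed genes were not available.

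Beyond the members, 152 envelope and squamous genes in 8 lists were followed, of which 78 passed the filter. In YAP-5SA minus YAP-S127A, 55 of the 78 were called higher and 10 lower (edgeR's quasi-likelihood test, Benjamini-Hochberg adjustment), with a median log2 fold change of 1.64 against 0.01 for all genes. Genes that passed the filter through 1 group alone had to differ, and 13 of the 78 did so through YAP-5SA. Of the 47 that passed in every group, 29 (61.7%) were higher and 7 (14.9%) lower, against 27.3% and 25.2% of the 14217 such genes in all. In TAZ-S89A minus YAP-5SA, 12 of the 47 were higher and 25 lower (53.2%, against 29% of all such genes). In TAZ-S89A minus YAP-S127A, 24 (51.1%) were higher and 16 (34%) lower, against 27.7% and 27.2% of all such genes. The median was 0.41 against 0.02.

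Among the scaffold and desmosome genes, 9 of 11 tested rose in YAP-5SA over YAP-S127A and 1 fell. Of the 9 that passed the filter in every group, 8 (88.9%) rose and 1 (11.1%) fell, against 27.3% and 25.2% of all such genes. Periplakin (Ppl), the partner of involucrin in the scaffold, rose by 3.40 (SE 0.28, adjusted p = 2.49e-07), from 33.3 ± 2.58 to 351.3 ± 57.2 CPM (SD, n = 3 each). Perp rose by 3.84 (SE 0.34, adjusted p = 4.12e-07) and had the highest mean level of its list, 68.7 nRPKM. In TAZ-S89A minus YAP-S127A, 5 of the 11 rose and 6 fell. Of the 9 that passed in every group, 4 (44.4%) rose and 5 (55.6%) fell there, against 27.7% and 27.2%. Desmoplakin (Dsp), which anchors keratins, was at 16.2 ± 0.467, 25.9 ± 2.7 and 0.395 ± 0.182 CPM in YAP-S127A, YAP-5SA and TAZ-S89A (SD, n = 3, 3 and 5). Its TAZ-S89A level fell by 5.40 (SE 0.22, adjusted p = 1.38e-10) from YAP-S127A and fell by 6.07 (SE 0.22, adjusted p = 3.81e-11) from YAP-5SA. Plakophilin 1 (Pkp1) rose in TAZ-S89A by 6.13 (SE 0.21, adjusted p = 2.47e-11) over YAP-S127A and 3.55 (SE 0.17, adjusted p = 5.1e-10) over YAP-5SA. Sciellin (Scel), another envelope precursor, was 3.82 lower on the log2 scale in TAZ-S89A than in YAP-5SA (TAZ-S89A minus YAP-5SA -3.82, SE 0.22, adjusted p = 2.75e-09).

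The late envelope genes were mostly silent, with 5 of 33 tested. Loricrin (Lor) averaged 0.144, 0.615 and 0.0205 CPM in YAP-S127A, YAP-5SA and TAZ-S89A, and Flg had no count. Trichohyalin (Tchh) rose by 4.66 (SE 0.29, adjusted p = 1.29e-08) in YAP-5SA over YAP-S127A, to 8.22 CPM. Corneodesmosin (Cdsn), an adhesive protein of cornified cells, was highest in TAZ-S89A, at 24.4 ± 6.93 CPM against 5.61 ± 0.45 in YAP-S127A (log2 fold change 2.12, SE 0.23, adjusted p = 3.21e-06). Of the other small proline-rich genes 2 of 11 were tested. Sprr2g, the most abundant of them, followed Sprr2h, with 1.26 ± 0.241, 38.5 ± 4.16 and 2.74 ± 0.589 CPM in YAP-S127A, YAP-5SA and TAZ-S89A, and rose by 4.93 (SE 0.23, adjusted p = 7.84e-10) in YAP-5SA. Sprr2i had 0 counts in YAP-S127A and 0.743 ± 0.164 CPM in YAP-5SA.

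Of 8 crosslinking and lipid enzymes tested, 4 rose and 1 fell in YAP-5SA over YAP-S127A. Of the 7 that passed the filter in every group, 3 rose (42.9%) and 1 fell (14.3%), against 27.3% and 25.2% of all such genes. Tissue transglutaminase (Tgm2), a widely expressed relative of Tgm1, averaged 9.56 nRPKM over all libraries and stood at 6.61 ± 1.13, 13.7 ± 0.856 and 78.6 ± 3.14 CPM. It rose in TAZ-S89A by 3.57 (SE 0.14, adjusted p = 9.17e-11) over YAP-S127A and 2.52 (SE 0.13, adjusted p = 1.38e-09) over YAP-5SA. Transglutaminase 3 (Tgm3) had 5, 3 and 0 counts in YAP-S127A, YAP-5SA and TAZ-S89A. The lipoxygenase gene Aloxe3, which acts on envelope lipids, rose by 2.81 (SE 0.43, adjusted p = 7.48e-05) in YAP-5SA.

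Of 8 proteases and inhibitors of desquamation tested, 6 rose and none fell in YAP-5SA over YAP-S127A. In TAZ-S89A minus YAP-5SA, 7 were lower and 1 higher. Of the 8, 3 passed the filter through YAP-5SA alone and so had to differ. Of the 4 that passed in every group, 2 (50%) rose and none fell in YAP-5SA, against 27.3% and 25.2% of all such genes. In TAZ-S89A minus YAP-5SA, 3 of the 4 (75%) were lower and 1 (25%) higher, against 29% and 26.7%. The antiprotease Slpi rose by 5.47 (SE 0.33, adjusted p = 1.1e-08). The membrane protease matriptase (St14) was at 1.45 ± 0.201, 5.68 ± 0.519 and 0.0217 ± 0.031 CPM in YAP-S127A, YAP-5SA and TAZ-S89A, and in TAZ-S89A fell by 5.76 (SE 0.45, adjusted p = 1.02e-07) from YAP-S127A. Prostasin (Prss8), which acts with matriptase, fell by 3.73 (SE 0.31, adjusted p = 1.73e-07) in the same comparison. Of 10 stratified epithelial keratins tested 9 rose in YAP-5SA over YAP-S127A, 5 of which passed the filter through YAP-5SA alone. Of the 2 that passed in every group, 1 rose and none fell. Krt6a had 0 counts in the other groups and 11.1 ± 3.08 CPM in YAP-5SA, and Krt4 had 1 count and 13.5 ± 1.29 CPM. Krt80, with the highest nRPKM of the list averaged over the 11 libraries though below Krt10 in YAP-S127A, stood at 7.15 ± 0.777, 161.2 ± 13.6 and 60.8 ± 12.95 CPM.

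**Figure D3:**
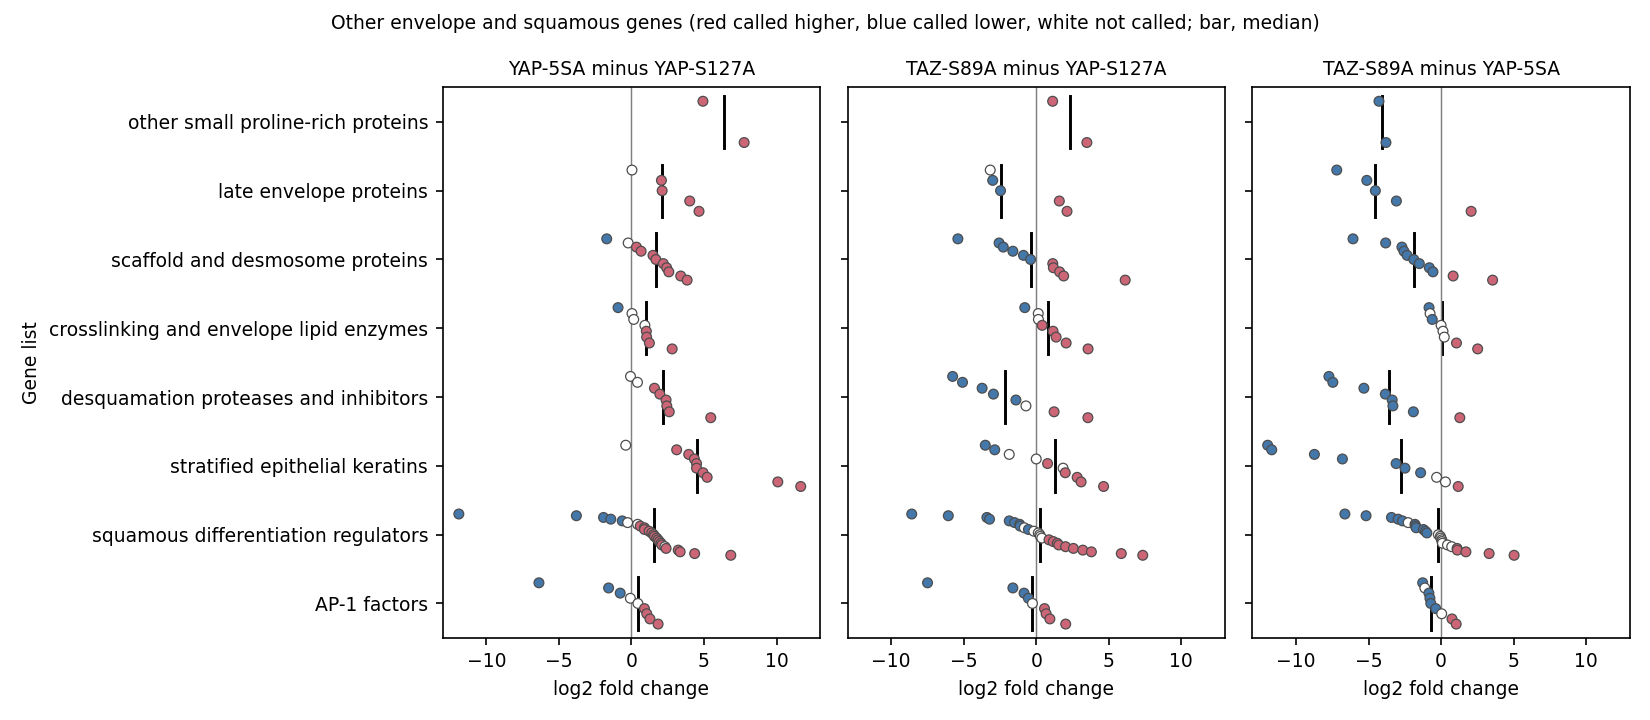
Log2 fold change (x axis) of each tested gene of the 8 lists (y axis) in the 3 comparisons; red points were called higher, blue lower, white not called, and bars are list medians. The lists lie mostly right of 0 in YAP-5SA minus YAP-S127A (55 of 78 higher) and mostly left in TAZ-S89A minus YAP-5SA (47 of 78 lower); fitted values of genes with no count in a group depend on the prior count.

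Regulators of squamous differentiation moved in both directions. In YAP-5SA over YAP-S127A 17 of 25 rose and 5 fell. Of the 15 that passed the filter in every group, 10 (66.7%) rose and 3 (20%) fell, against 27.3% and 25.2% of all such genes. Grhl3, a grainyhead-like factor of barrier formation, rose by 4.36 (SE 0.54) from 0.0534 to 1.17 CPM. It passed the filter through YAP-5SA alone and so had to differ. Zfp750, an epidermal regulator, was at 0.521, 5.05 and 0.0546 CPM in YAP-S127A, YAP-5SA and TAZ-S89A. Its TAZ-S89A minus YAP-5SA difference was -6.63 on the log2 scale (SE 0.41, adjusted p = 7.79e-09). Prdm1, a transcriptional repressor that takes part in keratinocyte terminal differentiation, was highest in YAP-S127A, with 107.2 ± 9.67 CPM in YAP-S127A, 3 counts in YAP-5SA and 0.284 ± 0.136 CPM in TAZ-S89A. Ehf, an epithelial ETS factor, had 1 and 7 counts in the YAP groups and 1.97 ± 0.953 CPM in TAZ-S89A. The p63 gene Trp63, the master regulator of stratified epithelia, was low in every group, at 0.111, 0.396 and 0.657 CPM. Of 9 AP-1 factors, whose letters were found in the members, 4 rose and 3 fell in YAP-5SA over YAP-S127A. Of the 8 that passed in every group, 4 rose (50%) and 2 fell (25%), against 27.3% and 25.2% of all such genes. Batf fell to 2 counts in YAP-5SA from 187 in YAP-S127A, but it passed the filter through YAP-S127A alone and so had to differ. Atf3 rose by 1.84 (SE 0.17, adjusted p = 5.6e-07) and Jun fell by 1.57 (SE 0.22, adjusted p = 2.98e-05). Fosl1, with the highest nRPKM of the list averaged over the 11 libraries (39.5) though below Junb and Jund in TAZ-S89A, stood at 80 ± 5.09, 109.4 ± 17.7 and 66.8 ± 19.7 CPM.

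The 6 members on chromosome 3 lie within the epidermal differentiation complex, taken here as S100a1 to S100a10 (90511034 to 93564645, 3.05 Mb), where 101 genes are annotated and 28 were tested. Leaving out the members, 23 remained, of which 19 were higher, 1 lower and 3 not called in YAP-5SA minus YAP-S127A, with a median of 3.01 against 0.29 for all of chromosome 3. Of these, 7 passed the filter through YAP-5SA alone. Among the 11 that passed in every group, 8 (72.7%) were higher and none lower, against 27.3% and 25.2% of all such genes. In TAZ-S89A minus YAP-5SA 9 of the 11 (81.8%) were lower and none higher, against 29% and 26.7% of all such genes, with a median of -1.55. In TAZ-S89A minus YAP-S127A 5 (45.5%) were higher and 1 (9.09%) lower, against 27.7% and 27.2%. S100 genes, which code for calcium-binding proteins, were named after their values were seen. Among the 11 genes, S100a7a averaged 8.86, 519 and 3.24 CPM in YAP-S127A, YAP-5SA and TAZ-S89A, while S100a4 averaged 2498, 2758 and 2636 CPM. The window thus did not move as a block.

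**Figure D4:**
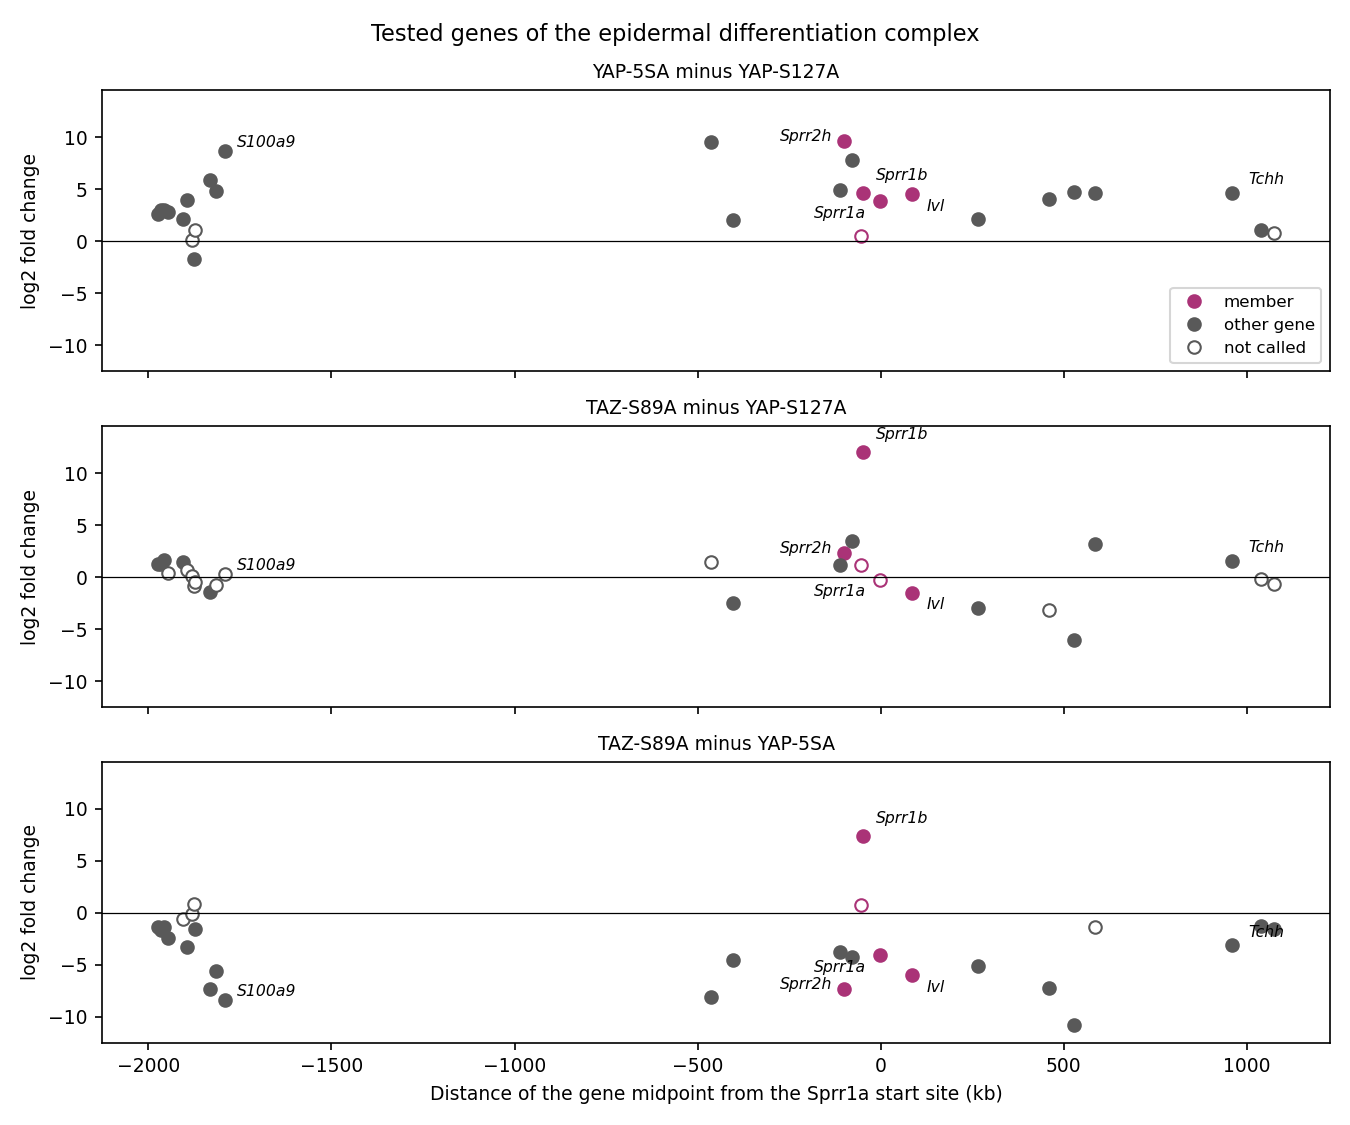
Log2 fold change (y axis) of the 28 tested genes of the epidermal differentiation complex by the distance of their midpoint from the Sprr1a start site in kb (x axis), in the 3 comparisons; purple points are members, grey points other genes, open points not called. Most points lie above 0 in YAP-5SA minus YAP-S127A and below 0 in TAZ-S89A minus YAP-5SA, where Sprr1b is at 7.40; its value against YAP-S127A, which had no count, depends on the prior count.

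The neighbours of Sbsn, Dmkn and Krtdap showed no such rise in YAP-5SA over YAP-S127A. Among the 10 annotated genes on either side (chromosome 7, 30603092 to 30944029), 6 that are not members were tested. All 6 passed the filter in every group. In YAP-5SA minus YAP-S127A 1 was higher and 3 lower, against 27.3% and 25.2% of all such genes. The median was -0.18 against -0.12 for chromosome 7. In TAZ-S89A minus YAP-5SA 1 was higher and 4 lower, against 26.7% and 29% of all such genes (median -0.60, chromosome -0.54). In TAZ-S89A minus YAP-S127A none was higher and 4 were lower, against 27.7% and 27.2% (median -0.86, chromosome -0.70).

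Within TAZ-S89A, the 2 libraries of the second ID series were compared with the 3 of the first, a contrast that did not enter the choice of members and was tested over all 18224 genes. What the series stand for is not given, and 25.6% of all genes were called (10.9% higher and 14.7% lower in the second). Of the 8 members tested, 2 were called, both lower in the second series. Sbsn fell from 21.9 ± 3.77 CPM (SD, n = 3) to 9.99 and 9.56 CPM (log2 fold change -1.16, SE 0.19, adjusted p = 0.000753). Sprr2k fell from 1.19 ± 0.256 to 0.367 and 0.167 CPM (-2.15, SE 0.44, adjusted p = 0.00295), a call that was lost without TAZ-S89A replicate 5 (adjusted p = 0.0672). With the close libraries summed, so that the second series was 1 library assumed to vary like the others, the adjusted p was 0.0264 for Sbsn and 0.0403 for Sprr2k.

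The 2 Sprr1 genes did not pass the test between the series, with log2 fold changes of -0.13 (SE 0.20, adjusted p = 0.693) for Sprr1a and -0.07 (SE 0.24, adjusted p = 0.867) for Sprr1b. Of the 23 other tested genes of the epidermal differentiation complex, 9 were called, all lower, and 14 were not, among them Sprr2g (-0.32, SE 0.22, adjusted p = 0.335) close by. Of the 11 other genes that passed the filter in every group, 8 fell in the second series and none rose (72.7% lower, against 17.6% of all such genes), and the counts were the same with the close libraries summed. All 8 were S100 genes, which lie toward the ends of the complex and were named after their values were seen. S100a6 fell from 10260 to 2827 CPM on average (-1.86, SE 0.19, adjusted p = 2.43e-05), S100a4 from 3748 to 969.1 CPM (-1.95, SE 0.17, adjusted p = 8.3e-06) and S100a10 from 2465 to 864.8 CPM (-1.51, SE 0.15, adjusted p = 2.38e-05). The difference between these genes and Sprr1a was not tested.

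**Figure D5:**
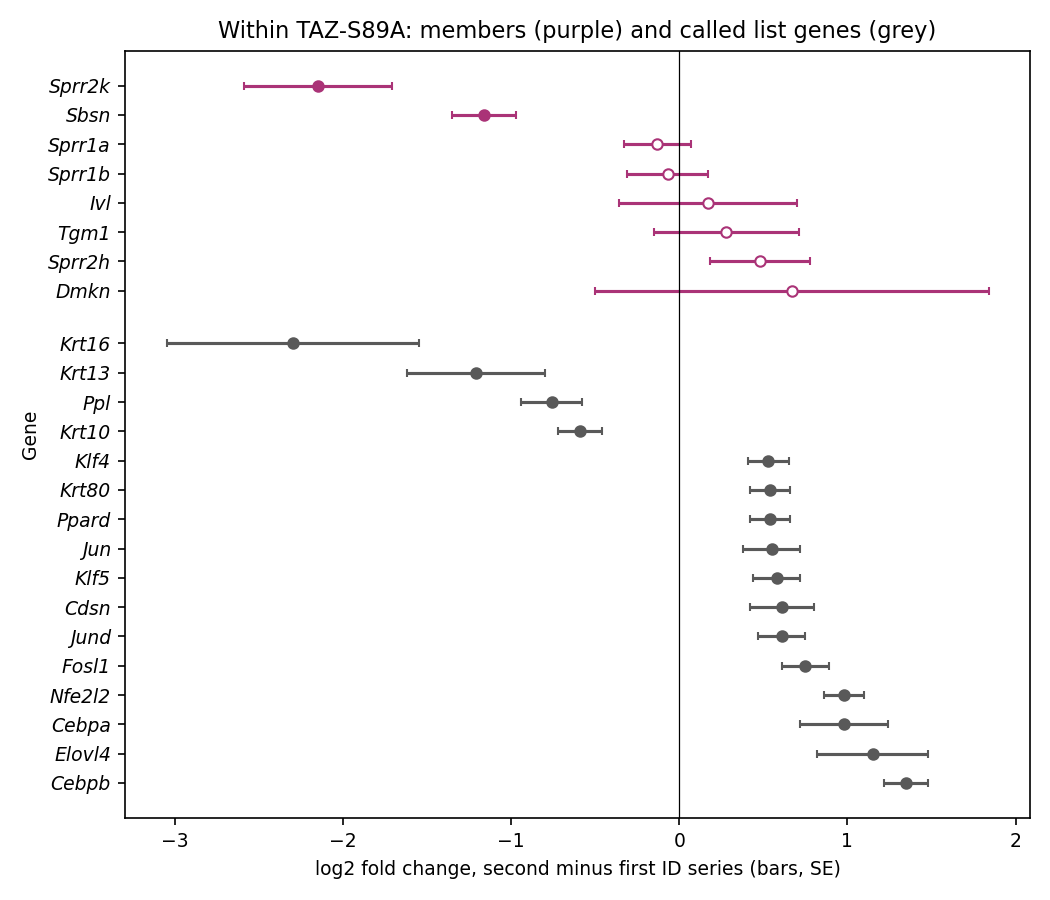
Log2 fold change between the second and first ID series within TAZ-S89A (x axis, bars are SE) for the 8 tested members (purple) and the 16 other listed genes that were called (grey); filled points were called. Sprr2k and Sbsn lie below 0, and the other 6 members were not called.

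Of the 78 other listed genes, 12 rose and 4 fell in the second series, where 10.9% of all tested genes rose and 14.7% fell. Of the 47 that passed in every group, 12 rose (25.5%) and 2 fell (4.26%), against 13.1% and 17.6% of all such genes. Of 9 AP-1 factors tested, 3 were called and all rose: Fosl1 by 0.75 (SE 0.14, adjusted p = 0.00141), Jund by 0.61 (SE 0.14, adjusted p = 0.0076) and Jun by 0.55 (SE 0.17, adjusted p = 0.0275). Of the 8 that passed in every group, 3 rose (37.5%) and none fell, against 13.1% and 17.6% of all such genes. Cebpb, a leucine zipper factor of differentiating keratinocytes, rose by 1.35 (SE 0.13, adjusted p = 2.17e-05) and Nfe2l2, the oxidative stress regulator, by 0.98 (SE 0.12, adjusted p = 0.000119). Ppl fell by 0.76 (SE 0.18, adjusted p = 0.00866). Of the keratins called, 3 fell, while Krt80 rose by 0.54 (SE 0.12, adjusted p = 0.00517). With the close libraries summed, 6 of the listed genes rose and none fell at the threshold.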

How the data were processed

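PolyA RNA of 11 libraries was analysed, grouped by the mutation in their labels; replicate numbers follow deposition order. The authors deposited a count of uniquely aligned reads per Entrez gene and an nRPKM, an RPKM adjusted for library size factors, as the authors' file headers state. Reads were aligned with GSNAP to GRCm38, per the submitters' processing notes. The sources used here do not give the counter, annotation release, strand setting or read length. RefSeq matched 31049 of 36528 IDs, and the other 5479 held 2.91% of counts. Members and lists were chosen with earlier results of these data known.

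Counts were tested with edgeR 4.0.16 in R 4.3.3: filterByExpr, TMM factors, a robust quasi-likelihood fit of all 11 libraries, and Benjamini-Hochberg adjusted p under 0.05 over 18224 genes. A floor of 3 counts over a group served where a group had none. Named genes were all members, up to 3 called genes with the largest fold change per list and comparison, the highest gene of each list, and the 2 nearest profiles per member; Flg, Sprr2 relatives, Trp63, Tgm3 and S100 genes outside that rule were named after their values were seen. A gene that the rule names is not reported here. The planned search of protein sequences was replaced by coding sequences of GENCODE M21. The planned window on chromosome 7 was set around Sbsn, Dmkn and Krtdap, since Sbsn precedes Dmkn. The fit was tested on simulated data. Alternatives were DESeq2 1.42.0, upper-quartile and RLE factors, other filters, fewer libraries and the ID series as a covariate; summing close TAZ-S89A libraries was added after seeing the data.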

Additional observations from a re-analysis of the deposited data

Results flagged for a closer look

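Sprr1a in TAZ-S89A replicate 3 stood at 99.98 CPM, while the other 4 libraries of that group lay between 58.74 and 68.74 CPM. Its distance from the nearest library, as a share of the range of the group, passed the 95% critical value of Dixon's test for 5 samples (0.71), which chance alone passes in about 1 of 20 groups of independent samples. The close pairs in this group, replicates 1 and 2 and replicates 4 and 5, are not fully independent, so that rate does not apply as such. Sprr1b and Sbsn were also highest in that library, at 18.44 and 26.1 CPM, without passing that value. No other member was singled out by these rules. The flagged value was in CPM. On the scale per length, Sprr1a stood at 101 nRPKM in TAZ-S89A replicate 3 and between 59.44 and 74.73 nRPKM in the other 4 libraries. There, the gap to the nearest library was a smaller share of the range.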

How the results depend on the processing

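In the comparisons between mutants, the counts of all genes and of all listed genes called stayed within 1.5-fold under every alternative run; counts for single lists moved further in 72 instances over all comparisons. Leaving out each library in turn gave 9451 to 11154 genes called in TAZ-S89A minus YAP-5SA, 9020 to 10920 in TAZ-S89A minus YAP-S127A and 8778 to 10724 in YAP-5SA minus YAP-S127A. The comparison of the ID series within TAZ-S89A was less stable. Without 1 library it called 2294 (without TAZ-S89A replicate 4) to 5422 genes, against 4666, and of the other listed genes 8 to 19 higher, against 12, and 0 to 4 lower, against 4. With replicates 1 and 2 and replicates 4 and 5 each summed, it called 1972 genes, and 6 listed genes higher and 0 lower. The cause was not tested, though these settings hold fewer libraries. No called fold change of a member reversed. Of those not called, Tgm1 in TAZ-S89A minus YAP-5SA ran from -0.30 to 0.04 without 1 library, and Sprr1a and Sprr1b between the ID series from -0.27 to 0.24 and from -0.17 to 0.19. Those of Sprr2k and Tgm1 changed their side of the threshold in some settings, on 266 counts of Sprr2k in all. No paired analysis was possible because the labels give no replicate numbers. Counts near the floor limit Sprr2d, Krtdap, Sprr1b in the YAP groups and Dmkn outside YAP-5SA.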
